A study of Mus musculus with 221 samples.

Results

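Neurexins, neurexophilins and neuroligins are surface and secreted proteins of the synapse, and 7 genes of these families were followed here across single cells of the embryonic mouse neocortex. They are the neurexins Nrxn2 and Nrxn3, the neurexophilins Nxph1 and Nxph4, and the neuroligins Nlgn1, Nlgn2 and Nlgn3. They were chosen by symbol, with their levels in these cells already known, so their levels are described and carry no test. They are 7 of the 23244 features in the table. The 221 cells came from microdissected medial neocortex of untreated C57BL/6J embryos at E18.5, a day or so before birth, labelled female. Each of 2 pools joined tissue of 8 embryos; pool 1 gave 122 cells and pool 2 gave 99. The study's title concerns Hopx-dependent basal radial glia, a progenitor type, and no group was treated or mutant.

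Neurexins sit mainly on the presynaptic membrane and bind many partners across the cleft. Neuroligins are the best known of these partners and sit on the postsynaptic side, Nlgn1 mostly at excitatory synapses and Nlgn2 at inhibitory ones, while Nlgn3 is found at either kind. Neurexophilins are secreted glycoproteins that bind the extracellular part of alpha-neurexins. Around birth most cortical synapses have not yet formed, and the cortex holds newly made excitatory neurons, interneurons that migrated in from the ventral forebrain, and the last neurogenic progenitors.

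Values are TPM, transcript shares per length scaled to a fixed total in each cell, so levels may be compared between genes. Every cell has a lowest value, here called the floor, of 1.33 to 3.0 TPM, at which all features without signal stand. Detected means above that cell-specific floor. Between 2146 and 6727 genes were detected per cell (median 4035). Read numbers are not used here, so depth is unknown, and a cell at the floor may still hold the transcript. Intervals beside shares of cells are exact 95% Clopper-Pearson intervals and reflect only the number of cells counted. For a count of 0 the limit given instead is 3 cells of the total, and it limits the share of cells above the floor, not of cells that hold the transcript.

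Cells were classed from marker genes that include none of the 7. The excitatory neuron-like class held 103 cells (53 in pool 1, 50 in pool 2), the interneuron-like class 27 (16 and 11) and the progenitor-like class 41 (21 and 20), the last made of 18 radial glia-like and 23 intermediate progenitor-like cells. A group of 49 cells (32 and 17) led by Pcp4, Sstr2, Neurod1 and Slc17a6 had leading genes of more than a single class and stayed unnamed. It is called the Neurod1/Sstr2 cluster. A single cell with microglial genes also stayed unnamed. Gad1, the enzyme that makes GABA, was detected in 19 of 27 interneuron-like, 5 of 103 excitatory neuron-like and 2 of 41 progenitor-like cells. Neurod6, a transcription factor of excitatory neurons, was detected in all 103 excitatory neuron-like cells, but also in 24 of 27 interneuron-like and 40 of 41 progenitor-like cells, at means of 1841, 269 and 990 TPM. The median number of detected genes was 4043 in excitatory neuron-like, 3409 in interneuron-like, 4638 in progenitor-like and 3868 in Neurod1/Sstr2 cells. The part of these differences in detection in the results below was not tested.

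Over all cells Nrxn2 was detected in 62, Nlgn2 in 58, Nlgn1 in 52, Nrxn3 in 50, Nlgn3 in 46, Nxph1 in 36 and Nxph4 in 17 of 221. At least 1 of the 7 was above the floor in 170 of 221 cells. All 27 interneuron-like cells had at least 1, whereas 26 of 103 excitatory neuron-like, 15 of 41 progenitor-like and 10 of 49 Neurod1/Sstr2 cells had none. The mean number per cell was 2.56 in interneuron-like, 1.21 in excitatory neuron-like, 1.20 in progenitor-like and 1.49 in Neurod1/Sstr2 cells. The mean of 2.56 in interneuron-like cells rests mainly on Nrxn3 and Nxph1, detected in 26 and 19 of these 27 cells. The other genes of the 7 were detected in 0 to 11 of them.

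**Figure D1:**
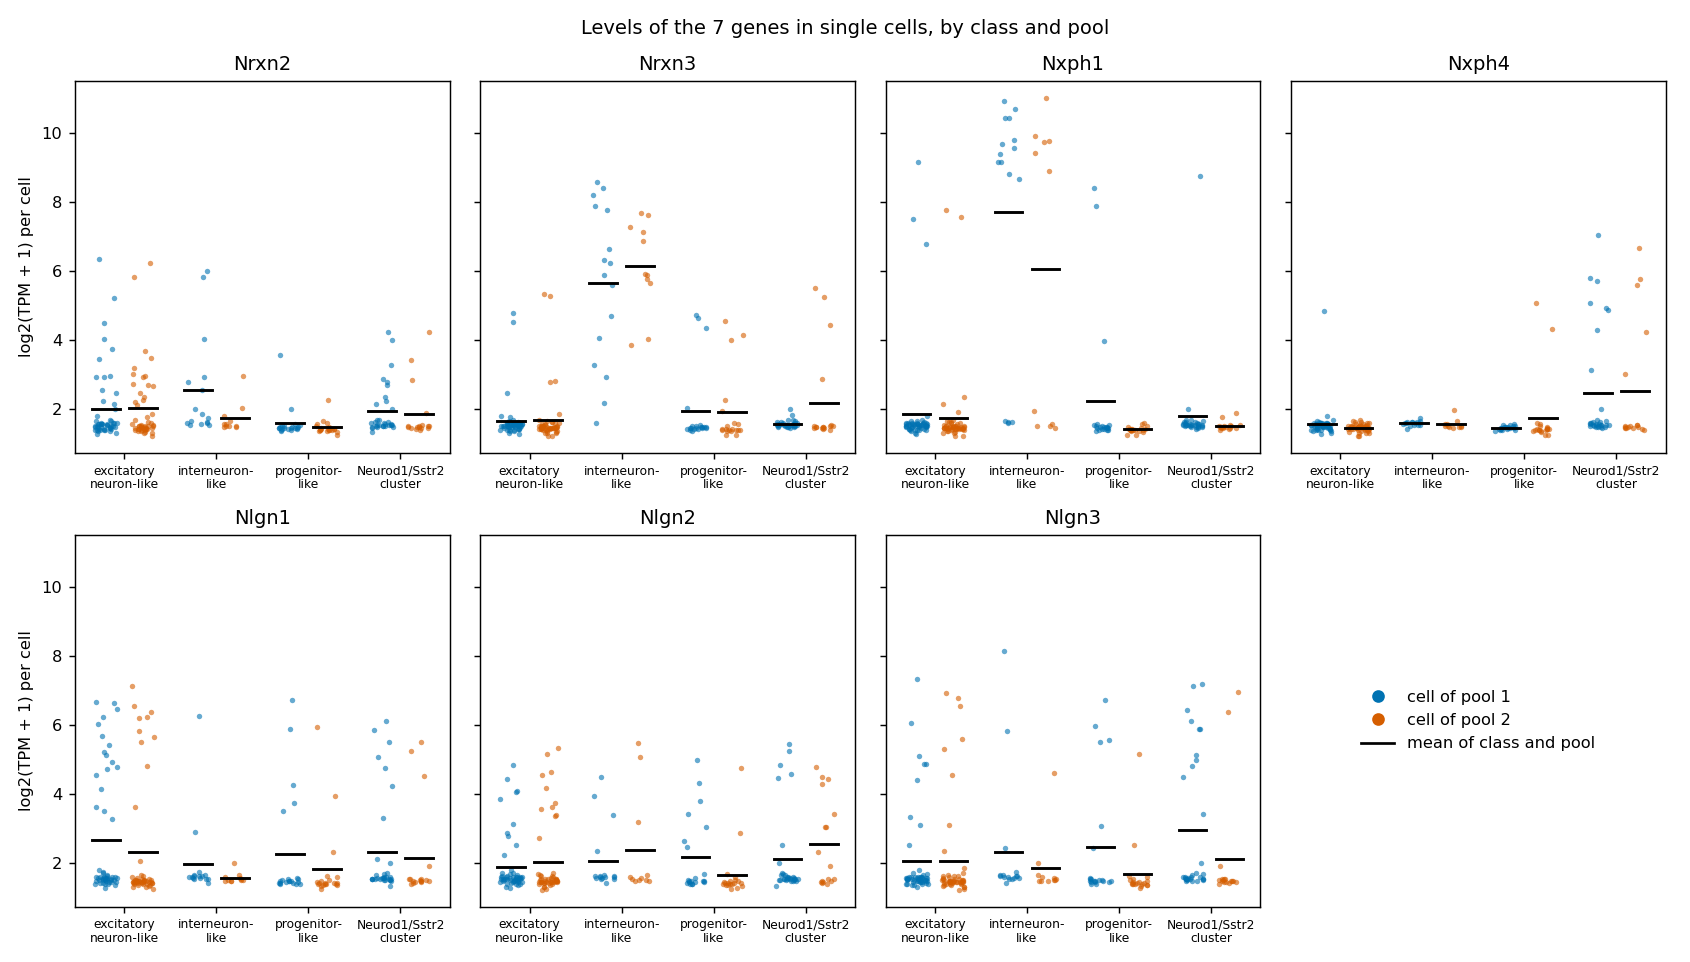
Level of each of the 7 genes as log2(TPM + 1) (vertical axis) in each cell, by class (horizontal axis) and pool (colour); points are cells and black lines are means of a class in a pool. Nrxn3 and Nxph1 stand high in interneuron-like cells of both pools, and Nxph4 is detected in 14 of 49 cells of the Neurod1/Sstr2 cluster.

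Nrxn3 is a neurexin gene of chromosome 12 (88722876 to 90334935, plus strand, GENCODE vM21 on GRCm38) and spans 1612060 bases. It was detected in 26 of 27 interneuron-like cells (96.3%, 81.0 to 99.9%), in 15 of 16 of pool 1 and 11 of 11 of pool 2. The levels in these 27 cells ran from the floor through a median of 59.2 TPM to 382 TPM. In excitatory neuron-like cells it was detected in 9 of 103 (8.74%, 4.07 to 15.9%), and the highest value was 39.2 TPM. In progenitor-like cells it was detected in 9 of 41 (22%, 10.6 to 37.6%), with a highest value of 25.8 TPM. Of these 9 cells 3 carried 5, 9 and 9 interneuron markers, the cell at 25.8 TPM among them, and the share was 15.8% without possible doublets. In Neurod1/Sstr2 cells it was detected in 5 of 49, with a highest value of 45.0 TPM. No cell outside the interneuron-like class reached 100 TPM, and 10 of the 27 interneuron-like cells did.

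Mean Nrxn3 was 119 TPM in pool 1 and 96.5 TPM in pool 2 for interneuron-like cells. It was 2.77 and 3.43 TPM for excitatory neuron-like cells and 4.86 and 4.3 TPM for progenitor-like cells. Both pool means of interneuron-like cells were the higher ones. Nrxn3 was chosen with its levels known, so this order is a description and no support. The mean log2(TPM + 1) was higher in interneuron-like than in excitatory neuron-like cells by 4.23 ± 0.44 (SE of a limma fit over all genes, n = 2 pools per class), and than in progenitor-like cells by 3.98 ± 0.44. Between excitatory neuron-like and progenitor-like cells the difference was -0.25 ± 0.44, smaller than its error.

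Nxph1 encodes a neurexophilin known from inhibitory neurons and lies on chromosome 6 (8948431 to 9249032, plus strand). It was detected in 19 of 27 interneuron-like cells (70.4%, 49.8 to 86.2%). Its levels there fell into separate ranges: 18 cells held 405 to 2081 TPM (median 842), and the other 9 held at most 2.82 TPM. In pool 1, 12 of 16 cells were in the high range and in pool 2 6 of 11. Mean Nxph1 was 723.5 TPM in pool 1 and 542 TPM in pool 2, the highest mean of the 7 genes in any class.

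Outside the interneuron-like class, Nxph1 was detected in 9 of 103 excitatory neuron-like (8.74%, 4.07 to 15.9%), 3 of 41 progenitor-like (7.32%, 1.54 to 19.9%) and 4 of 49 Neurod1/Sstr2 cells. Some of these values were not small. In 8 such cells Nxph1 stood at 110 to 573 TPM. Those 8 cells had 0 to 3 of the 16 measured interneuron markers above the floor, against 5 to 10 in interneuron-like cells and 0 to 4 in excitatory neuron-like cells. For comparison, Lhx6 was detected in 8 of 103 excitatory neuron-like cells and Sst in 23 of 103. The log2 difference of Nxph1 was 5.08 ± 0.59 for interneuron-like minus excitatory neuron-like cells (5.83 in pool 1, 4.32 in pool 2) and 5.07 ± 0.59 for interneuron-like minus progenitor-like cells (5.48 and 4.66). Between excitatory neuron-like and progenitor-like cells the pools differed in sign, at -0.35 and 0.34.

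Nrxn3 and Nxph1 differed within the interneuron-like class. The class joined 2 clusters: cluster 2 with 22 cells, 17 of which held Lhx6, a transcription factor of interneurons born in the medial ganglionic eminence, and cluster 1 with 5 cells, of which 4 held Htr3a, 5 held Adarb2 and 0 held Lhx6, as known for interneurons of the caudal eminence. Lhx6 and Htr3a were used in the clustering, and Adarb2, Nxph1 and Nrxn3 were not. Nrxn3 was detected in 5 of 5 cells of cluster 1 (3.50 to 238 TPM, median 53.5) and in 21 of 22 cells of cluster 2 (2.0 to 382 TPM, median 67.1). Nxph1 was detected in 1 of 5 cells of cluster 1, at 2.82 TPM, and in 18 of 22 cells of cluster 2. Among interneuron-like cells with Nxph1, 16 of 19 had Lhx6, and among those without it 1 of 8 had. Adarb2 showed the opposite counts, 2 of 19 and 5 of 8. Sst, a neuropeptide of many Lhx6-positive interneurons, was detected in 9 of 19 and 2 of 8. Cells with and without Nxph1 had medians of 3468 and 3298 detected genes, whereas clusters 1 and 2 had medians of 2810 and 3555. The part of this cluster difference in the Nxph1 counts was not tested. With 5 cells in cluster 1, its shares are loosely bounded (0.505 to 71.6% for Nxph1).

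Nxph2, another neurexophilin that was not among the 7, was detected in 13 cells, 9 of them interneuron-like. All 9 also had Nxph1, and 8 had Nrxn3. Its levels in those 9 cells were 79.8 to 1073 TPM. The log2 difference of Nxph2 for interneuron-like minus progenitor-like cells was 2.05 ± 0.50 (adjusted p = 0.029, limma). Nxph2 met the filter of at least 10 cells only through the interneuron-like class, where it was high. Its adjusted p-values are therefore no independent support. Without the filter on detection Nxph2 was not called in this comparison. Mean levels were 201 and 52.8 TPM in the interneuron-like cells of pools 1 and 2, and 6.62 and 1.67 TPM in progenitor-like cells. Against excitatory neuron-like cells the log2 difference was 2.0 ± 0.50 with an adjusted p of 0.11 (limma). With the pool as a block its adjusted p was 0.036 (limma). Nxph3 was detected in 1 of 221 cells, at 4.04 TPM.

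**Figure D2:**
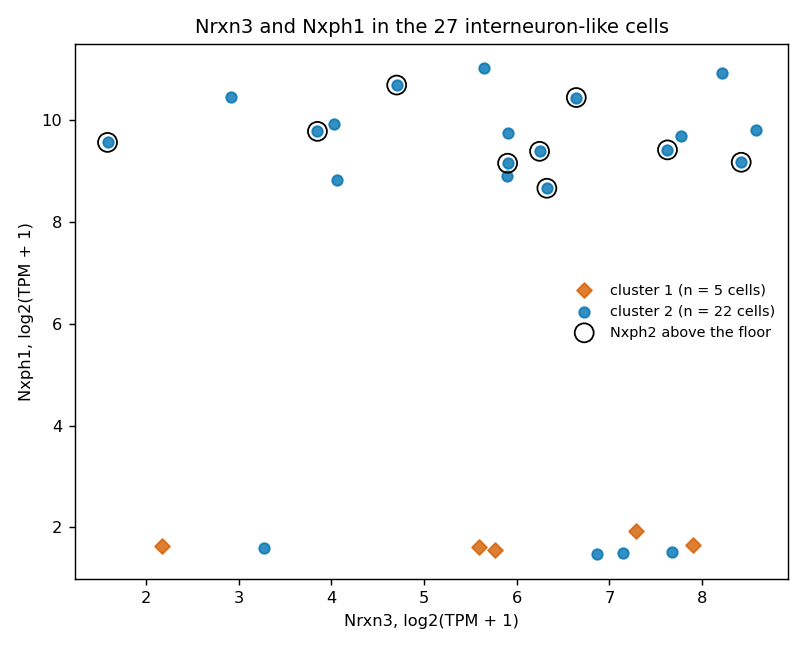
Nxph1 (vertical axis) against Nrxn3 (horizontal axis), both as log2(TPM + 1), in the 27 interneuron-like cells; diamonds are cluster 1, dots cluster 2, and rings mark cells with Nxph2 above the floor. Nxph1 is either high or near the floor at every level of Nrxn3, and all 9 ringed cells are among those with high Nxph1.

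The sequence before a transcription start is shown for Nrxn3 and Nxph2, both detected most often in the interneuron-like class, from the RefSeq annotation on GRCm38.p6. The windows hold the 250 bases before the start. For Nrxn3 the window of the most downstream of 3 listed starts is given (chr12:89812233-89812482, plus strand), and for Nxph2 the only listed start (chr2:23320996-23321245, plus strand). Capitals mark CG dinucleotides.
Nrxn3: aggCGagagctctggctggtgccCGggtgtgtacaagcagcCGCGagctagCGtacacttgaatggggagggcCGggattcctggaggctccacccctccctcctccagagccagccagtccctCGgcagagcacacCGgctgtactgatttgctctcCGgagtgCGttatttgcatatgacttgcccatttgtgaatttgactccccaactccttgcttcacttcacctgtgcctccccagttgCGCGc
Nxph2: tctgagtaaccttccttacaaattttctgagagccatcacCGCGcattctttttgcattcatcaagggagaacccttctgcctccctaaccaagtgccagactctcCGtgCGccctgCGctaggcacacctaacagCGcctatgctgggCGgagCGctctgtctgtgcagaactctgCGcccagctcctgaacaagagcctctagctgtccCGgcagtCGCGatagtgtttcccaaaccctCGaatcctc
The Nrxn3 window holds 12 CG dinucleotides and 60.0% G and C, and the Nxph2 window 13 and 55.6%. Over all 32851 promoter windows of this length the medians were 6 CG dinucleotides and 52.4%. The other listed Nrxn3 starts had 2 and 5 CG dinucleotides. The letters TAATTA, a core that many homeodomain proteins bind, and TATAAA were searched on both strands. Neither occurred in the windows of Nrxn3, Nxph1 or Nxph2, and 4.84% and 12.4% of all windows hold them. TPM is summed per gene, so which start was in use is not shown by these data.

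Nrxn2 lies on chromosome 19 (6418731 to 6544169, plus strand) and was, of the 7, the gene detected most often. It exceeded the floor in 11 of 27 interneuron-like (40.7%, 22.4 to 61.2%), 34 of 103 excitatory neuron-like (33.0%, 24.1 to 43.0%), 12 of 49 Neurod1/Sstr2 (24.5%) and 5 of 41 progenitor-like cells (12.2%, 4.08 to 26.2%). Levels were low: the median in cells with detection was 5.84, 6.13, 6.21 and 3.01 TPM in the same order, and the highest value was 81.0 TPM. Only 1 of 18 radial glia-like cells had it. The log2 difference of excitatory neuron-like minus progenitor-like cells was 0.48 ± 0.27 (0.42 in pool 1, 0.55 in pool 2), and of interneuron-like minus progenitor-like cells 0.61 ± 0.27 (0.97 and 0.26). Interneuron-like and excitatory neuron-like cells were in no fixed order, with differences of 0.55 in pool 1 and -0.29 in pool 2. Within progenitor-like cells, those with Nrxn2 had a median of 5448 detected genes and those without 4487.

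Mean Nrxn2 exceeded mean Nrxn3 in excitatory neuron-like cells (5.50 and 3.09 TPM), whereas Nrxn3 was the higher of the pair in interneuron-like (110 and 7.47 TPM) and progenitor-like cells (4.59 and 2.03 TPM). Nrxn2 or Nrxn3 was above the floor in 26 of 27 interneuron-like, 41 of 103 excitatory neuron-like, 17 of 49 Neurod1/Sstr2 and 11 of 41 progenitor-like cells. All 11 interneuron-like cells with Nrxn2 also had Nrxn3, compared with 2 of 34 such excitatory neuron-like, 3 of 5 such progenitor-like and 0 of 12 such Neurod1/Sstr2 cells. Nrxn3 itself was detected in 26 of 27, 9 of 103, 9 of 41 and 5 of 49 cells of these groups. The full overlap in interneuron-like cells was therefore nearly fixed by its share there and shows no link between both genes.

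Nlgn1, on chromosome 3 (25426215 to 26332460, minus strand), had its highest share in excitatory neuron-like cells. It was detected in 30 of 103 of them (29.1%, 20.6 to 38.9%), in 11 of 49 Neurod1/Sstr2 cells (22.4%), 8 of 41 progenitor-like cells (19.5%, 8.82 to 34.9%) and 2 of 27 interneuron-like cells (7.41%, 0.910 to 24.3%). Mean Nlgn1 in excitatory neuron-like cells was 15.2 TPM in pool 1 and 14.3 TPM in pool 2, and the highest value was 139 TPM. Interneuron-like cells had means of 6.89 and 1.98 TPM, and in pool 2 all 11 stood at the floor, which allows a share of up to 27.3%. The log2 difference of interneuron-like minus excitatory neuron-like cells was -0.74 ± 0.30, and it was similar in both pools (-0.72 and -0.76). For excitatory neuron-like minus progenitor-like cells it was 0.46 ± 0.30. Excitatory neuron-like cells with Nlgn1 had a median of 4370 detected genes and those without 3971.

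Nlgn2, on chromosome 11 (69823122 to 69837784, minus strand), was spread most evenly over the classes. Its shares were 23.3% in excitatory neuron-like (24 of 103), 25.9% in interneuron-like (7 of 27), 29.3% in progenitor-like (12 of 41) and 28.6% in Neurod1/Sstr2 cells (14 of 49), and their intervals overlap widely. The highest value in any cell was 43.9 TPM, the lowest maximum of the 7 genes. Its largest log2 difference between classes was 0.31 ± 0.28, for interneuron-like minus progenitor-like cells, with -0.09 in pool 1 and 0.70 in pool 2. In the Neurod1/Sstr2 cluster the pools differed, with 6 of 32 and 8 of 17 cells.

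Nlgn3, on the X chromosome (101299168 to 101325963, plus strand), was detected in 18 of 103 excitatory neuron-like (17.5%, 10.7 to 26.2%), 4 of 27 interneuron-like (14.8%, 4.19 to 33.7%), 10 of 41 progenitor-like (24.4%, 12.4 to 40.3%) and 13 of 49 Neurod1/Sstr2 cells (26.5%, 14.9 to 41.1%). Its log2 differences between the 3 classes were -0.01 to 0.03, each with an SE of 0.32, but the pools differed in sign in each comparison. For excitatory neuron-like minus progenitor-like cells they were -0.40 in pool 1 and 0.39 in pool 2. The values were -0.13 and 0.18 for interneuron-like minus progenitor-like cells, and 0.27 and -0.21 for interneuron-like minus excitatory neuron-like cells. Among progenitor-like cells it was detected in 7 of 18 radial glia-like (38.9%, 17.3 to 64.3%) and 3 of 23 intermediate progenitor-like cells (13%, 2.78 to 33.6%). The mean was 15.4 TPM in the first and 3.87 TPM in the second, and the intervals of the shares overlap. Its highest value, 282 TPM, was in an interneuron-like cell, which makes up most of that class's mean of 15.2 TPM.

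At least 1 of the 3 neuroligin genes was above the floor in 53 of 103 excitatory neuron-like, 21 of 41 progenitor-like, 26 of 49 Neurod1/Sstr2 and 9 of 27 interneuron-like cells. Over all cells 110 of 221 had at least 1, 40 had 2 or more and 6 had all 3. Interneuron-like cells had the highest share with Nrxn2 or Nrxn3 (96.3%) and the lowest share with a neuroligin (33.3%), whereas the shares in excitatory neuron-like cells were 39.8% and 51.5%. The first share rests on Nrxn3, which all interneuron-like cells with Nrxn2 also had. A neuroligin was detected in 0 of 5 cells of cluster 1 and 9 of 22 of cluster 2. This class also had the lowest median of detected genes (3409), and the part of that in the neuroligin share was not tested.

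**Figure D3:**
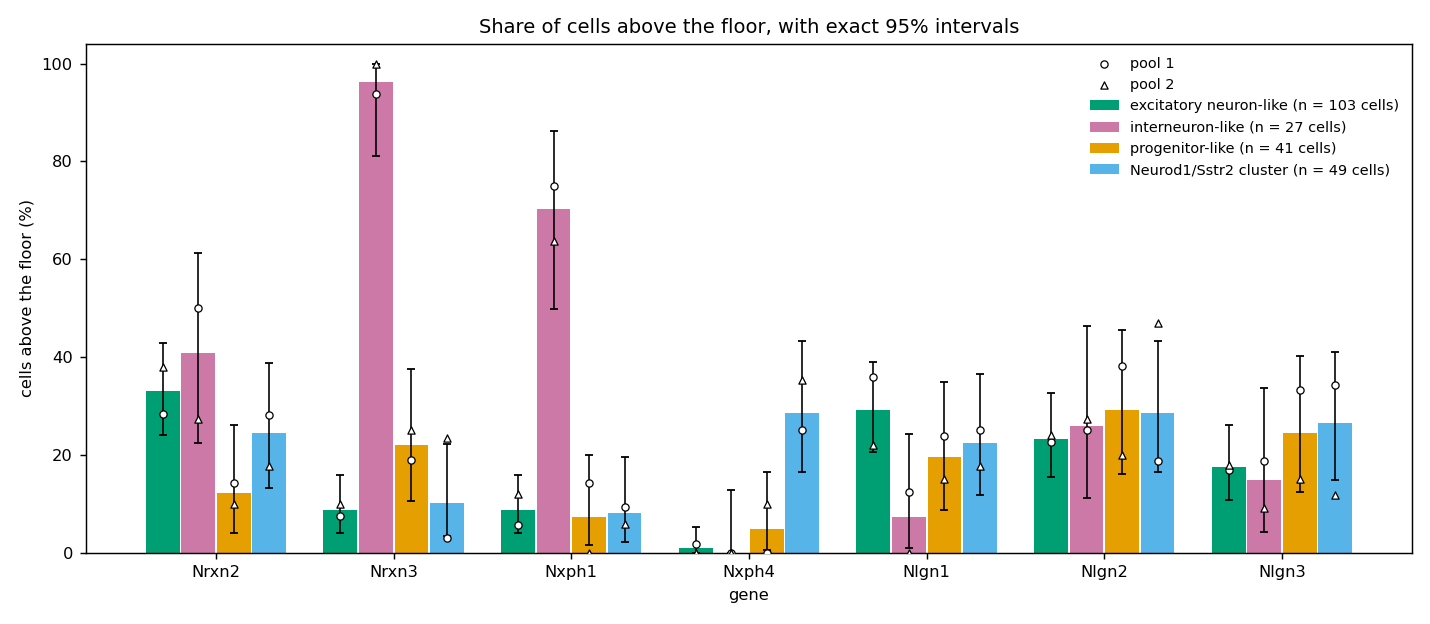
Share of cells above the floor in percent (vertical axis) for each gene (horizontal axis) in the 3 classes and the Neurod1/Sstr2 cluster; bars are all cells of a class, whiskers exact 95% intervals, and open circles and triangles pools 1 and 2. Nrxn3 (96.3%) and Nxph1 (70.4%) stand apart in interneuron-like cells, and Nlgn2 lies between 23.3% and 29.3% in every group.

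Nxph4, a neurexophilin gene of chromosome 10 (127525473 to 127534559, minus strand), was detected in the fewest cells, and 14 of the 17 were in the Neurod1/Sstr2 cluster. There it was above the floor in 28.6% of cells (16.6 to 43.3%), in 8 of 32 cells of pool 1 and 6 of 17 of pool 2. The values in these 14 cells ran from 1.90 TPM through a median of 31.1 to 133 TPM. It was detected in 1 of 103 excitatory neuron-like cells (28.0 TPM), 2 of 41 progenitor-like cells (18.9 and 33.0 TPM) and 0 of 27 interneuron-like cells, which allows a share of up to 11.1%. The 2 progenitor-like cells were both intermediate progenitor-like and of pool 2.

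Within the Neurod1/Sstr2 cluster, cells with Nxph4 had Tbr1, a transcription factor of early and deep-layer excitatory neurons, in 12 of 14 cases and Slc17a6, a vesicular glutamate transporter, in 12 of 14. Cells of the cluster without Nxph4 had them in 25 and 21 of 35. Nell2, a marker of excitatory neurons here, was detected in 4 of 14 and 20 of 35, and Eomes, a transcription factor of intermediate progenitors, in 4 of 14 and 5 of 35. Cplx3 and Ctgf, both known from subplate neurons, were at the floor in all 49 cells, which does not show their absence. Nr4a2, looked at beside them, was detected in 0 of 14 cells with Nxph4 and 2 of 35 without it. The companions named in these sentences were chosen after their values were seen. Of the 14 cells, 4 had Nrxn3. Those 4 were among the 5 cells of the cluster with Nrxn3.

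The genes with the most similar pattern over all 221 cells, by Pearson r of log2(TPM + 1), differed by gene. For Nrxn3 they were Dlx6as1 (r = 0.75), Dlx2 (0.68) and Dlx1 (0.63), from a gene group that marks forebrain interneurons. For Nxph1 they were Rpp25 (0.73), Gria1 (0.64), an AMPA receptor subunit, and Lhx6 (0.64). The other genes had only weak companions: Apc2, Zswim6 and Il1rapl1 for Nrxn2 (0.29 to 0.31), Gipr, Dusp22 and Fat4 for Nlgn1 (0.30 to 0.32), Tra2a, Tmem126b and Dlg4 for Nlgn2 (0.25 to 0.27), and X1110034G24Rik, Gm14431 and Elmo2 for Nlgn3 (0.29 to 0.34). Nxph4 was left out, since it was detected in 17 cells and 20 were required. Between the 7 genes themselves r was 0.52 for Nrxn3 with Nxph1 and between -0.11 and 0.12 for every other pair. Cells share pools, depth and class, so these values describe the 221 cells only.

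**Figure D4:**
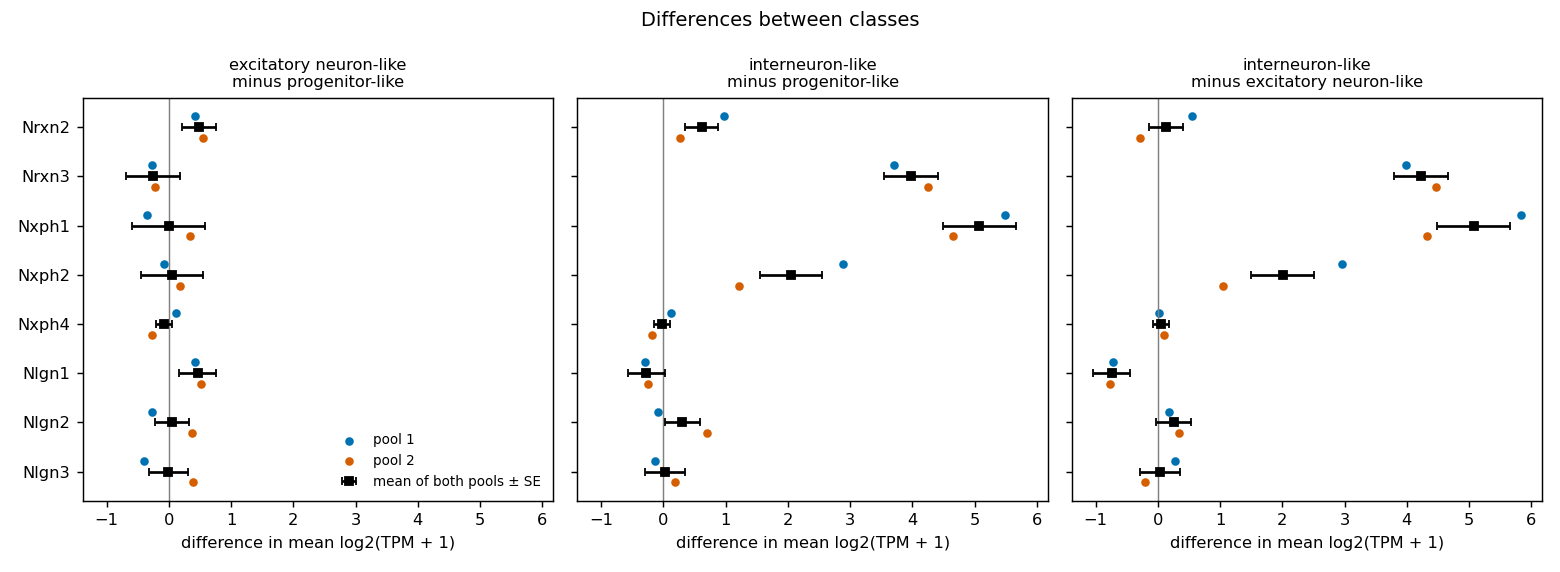
Difference in mean log2(TPM + 1) between classes (horizontal axis) for the 7 genes and Nxph2 (vertical axis), in 3 comparisons; squares with whiskers are means of both pools ± SE from limma, and coloured points are the pools. Nrxn3 and Nxph1 are higher in interneuron-like cells by 3.98 to 5.08, and all other differences of the 7 genes lie between -0.74 and 0.61.

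The wider pathway was examined in 78 other genes in 6 lists, of which 76 were in the table and 65 were detected often enough to be tested. All 10680 tested genes entered the same limma fit on class means per pool, and calls required both an adjusted p under 0.05 and a log2 difference with a size of 1 or more. In excitatory neuron-like minus progenitor-like cells 0 of the 65 were called, where 0.524% of all tested genes were called higher and 3.01% lower. At an unadjusted limma p below 0.05, 9 of the 65 passed, and 1852 of all 10680 tested genes did, which is a larger share. All 9 were higher in excitatory neuron-like cells, and the split by direction over all genes is not given here. The pathway genes had a median log2 difference of 0.27 and all tested genes one of -0.08. Lin7b, a PDZ protein of the presynaptic list that was picked out after its values were seen, had an adjusted p of 0.025 (limma) but a log2 difference of 0.89 ± 0.19, below the size required. It was detected in 14 of 103 excitatory neuron-like and 0 of 41 progenitor-like cells, which allows a share of up to 7.32% in the latter. With the floor set to 0 and with log2 of the mean TPM it was called. Lin7b was above the floor in 18 cells, and it met the filter of at least 10 cells only through the excitatory neuron-like class. Its adjusted p and these calls are therefore no independent support. Dlgap4, a scaffold of the postsynaptic density and the highest gene of its list, had a log2 difference of 1.93 ± 0.52 (adjusted p = 0.064, limma). With the pool as a block, its adjusted p was 0.047 (limma).

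In interneuron-like minus progenitor-like cells 4 of the 65 were called higher and 2 lower. None of the 6 calls held with class, pool and suffix of the cell name as the unit, where 0 of the 65 were called. The number of all tested genes called in that setting is given in the closing section on processing. At the looser limit of an unadjusted limma p below 0.05, 2037 of all tested genes passed there. Such units split the cells of a pool and are not further independent replicates. The marker gate left Cadm1 and Clstn3, and leaving out 16 progenitor-like cells of clusters led by cycling genes left Cadm1 and Nxph2. In the main fit, 16 of the 65 had an unadjusted limma p below 0.05 (12 of them higher), and 2673 of all 10680 tested genes did. Over all tested genes 1.31% were called higher and 6.88% lower, and the median was -0.16 against 0.12 for the pathway genes. The 4 were Nxph2, given above, Cadm1, Clstn3 and Grip1. Cadm1, an adhesion protein of the immunoglobulin family, rose by 2.12 ± 0.51 (adjusted p = 0.027, limma), with mean levels of 155 and 192 TPM in the interneuron-like cells of pools 1 and 2 and 39.7 and 43.3 TPM in progenitor-like cells. Clstn3, a calsyntenin that binds neurexins, was detected in 9 of 27 interneuron-like and 1 of 41 progenitor-like cells (1.29 ± 0.29, adjusted p = 0.020). Grip1, a PDZ scaffold of AMPA receptors, was detected in 10 of 27 and 2 of 41 (1.28 ± 0.27, adjusted p = 0.017).

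The 2 lower genes are both listed as neurexin ligands, as is Clstn3, which was called higher. These 2 lower calls are 3.08% of the 65 pathway genes, below the 6.88% of all tested genes called lower. Lphn2, a latrophilin receptor, was detected in 7 of 27 interneuron-like and 31 of 41 progenitor-like cells, and fell by 2.17 on the log2 scale (SE 0.57, adjusted p = 0.036). Igsf21, which binds Nrxn2, stood at the floor in all 27 interneuron-like cells and was detected in 9 of 41 progenitor-like cells (adjusted p = 0.035). With the pool as a block Shank1, a postsynaptic scaffold, was also called (1.70, adjusted p = 0.041, against 0.061 without the block).

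In interneuron-like minus excitatory neuron-like cells 0 of the 65 were called higher and 1 lower, beside 0.365% and 0.403% of all tested genes. The pathway median was -0.11 and that of all tested genes -0.07. An unadjusted limma p below 0.05 was met by 18 of the 65 (7 of them higher) and by 1152 of all 10680 tested genes. The called gene was Flrt3, an adhesion protein that binds latrophilins, detected in 5 of 27 and 72 of 103 cells. Its means were 15.7 and 3.43 TPM in the interneuron-like cells of pools 1 and 2 and 98.0 and 105 TPM in excitatory neuron-like cells, a fall by 2.67 on the log2 scale (SE 0.44, adjusted p = 0.018, limma). A pool block raised the calls over all genes from 82 (39 higher, 43 lower) to 140 (50 higher, 90 lower), and those in the pathway from 1 to 5. Besides Flrt3 these were Lphn2 (-2.44, adjusted p = 0.037), Clstn2 (-2.13, adjusted p = 0.029) and Khdrbs3 (-2.94, adjusted p = 0.019), all lower, and Nxph2, which was higher. Khdrbs3, an RNA-binding protein of the family that regulates neurexin splicing, was detected in 16 of 27 interneuron-like and 100 of 103 excitatory neuron-like cells. In the fit without the block, its adjusted p was 0.15 (limma).

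Without the pool block, the highest gene of each remaining list was called in no comparison. Sdcbp, a PDZ protein that binds the neurexin tail, had a mean of 363 TPM over all cells, and Khdrbs3 315 TPM. Ptprs, a receptor phosphatase of presynaptic terminals, had 85.3 TPM. Of the 7 genes Nxph1 had the highest mean over all cells, 91.4 TPM, which rests on 26 cells at 100 TPM or more, and the other means ran from 4.66 TPM (Nrxn2) to 16.6 TPM (Nrxn3).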

How the data were processed

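The authors deposited TPM values, made on mm10 with tools that included Cufflinks 2.2.1, Bowtie2 2.2.6 and TopHat2 2.0.14, per the submitters' processing notes. How reads were counted is not given in the sources used here. Per the labels' protocols, cells were captured on a Fluidigm C1 and libraries made with SMARTer v4 and Nextera XT kits. Both deposited tables hold the same values (largest difference 0 TPM), and the tables carry no read numbers, so the depth per cell is unknown. Detection meant a value above the cell's lowest value. What the letters A and B in cell names mean is not given in the sources used here.

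Cells were grouped by Ward linkage on 10 principal components of 95 marker genes (log2(TPM + 1), standardized) into 10 clusters. A cluster was named after the class with the highest marker score among classes with at least 3 markers detected in 50% of its cells, unless another class held at least 1, and as many or more, of the 10 leading genes; cycling genes were not counted as a class. This naming rule, the limits of the marker gate and those for possible doublets were set after the clusters and the detection of the 7 genes in them had been seen. Radial glia-like and intermediate progenitor-like clusters were joined as progenitor-like; in 2 of them (16 cells) cycling genes led. No doublet caller was run. As a check, 7 cells with markers of another class were left out. A gate on marker counts placed 93 of 103 excitatory neuron-like, 27 of 27 interneuron-like and 36 of 41 progenitor-like cells in the same class. It moved 8 excitatory neuron-like cells to the progenitor-like class and 3 progenitor-like cells to the interneuron-like class. Of the unnamed cells, nearly all from the Neurod1/Sstr2 cluster, it placed 42 as excitatory neuron-like, 5 as progenitor-like and 1 as interneuron-like.

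A pool mixes cells of 8 embryos that cannot be told apart, and each pool was therefore taken as a single replicate of a class (n = 2). Mean log2(TPM + 1) per class and pool was fitted with limma 3.58.1 in R 4.3.3 (trend and robust variances, 6 profiles, 3 residual degrees of freedom, two-sided, Benjamini-Hochberg over 10680 genes detected in at least 10 cells). Markers and the 92 spike-in features were left out, and classes come from the same cells that were tested. The pseudocount understates changes of low genes. Classes of a pool come from the same embryos and are paired by design. The deviations of pools from class means were correlated by 0.0232, 0.0780 and 0.0293 between classes. Named genes were the 7, pathway genes called (at most 10 per comparison), the highest gene of each pathway list, and the 3 genes with the highest r for each of the 7 detected in at least 20 cells. Some items of the lists are not reported here and enter no count of list members. The 7 genes and the lists were chosen with earlier results of these data known. Alternatives were pseudocount 10, the floor set to 0, no filter, log2 of the mean, a pool block, suffix units, the gate, 8 or 12 clusters, radial glia-like progenitors only, no possible doublets, detection at 10 TPM and, chosen after seeing the data, the Neurod1/Sstr2 cluster counted as excitatory neuron-like and clusters led by cycling genes left out.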

Additional observations from a re-analysis of the deposited data

Results flagged for a closer look

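Signal was present in cells that enter none of the 3 class comparisons. Nxph4 was above the floor in 28.6% of the 49 cells of the Neurod1/Sstr2 cluster (14 cells). In the single unnamed cell, which had 6271 detected genes and microglial markers beside 13 radial glia and 6 interneuron markers, 5 of the 7 genes were above the floor. These were Nrxn3 (19.7 TPM), Nxph1 (12.4 TPM), Nlgn1 (1.89 TPM), Nlgn2 (12.4 TPM) and Nlgn3 (27.3 TPM). Both values are descriptions without a test.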

How the results depend on the processing

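The number of called genes depended on the processing, while no log2 difference of at least 1 in size among the 7 genes changed sign. Excitatory neuron-like minus progenitor-like calls numbered 377, but 221 without the filter on detection, 77 with log2 of the mean TPM, 191 with class, pool and suffix as the unit, 40 with the marker gate and 37 without the clusters led by cycling genes. Interneuron-like minus progenitor-like calls numbered 875, but 1333 with the floor set to 0, 455 with log2 of the mean (123 higher, 332 lower), 474 by suffix units, 295 by the gate and 372 without those clusters. Interneuron-like minus excitatory neuron-like calls numbered 82, but 47 without the filter, 140 with the pool as a replicate block, 11 with radial glia-like cells only as progenitors, 44 without the cycling clusters, and 0 with log2 of the mean, where 1409 genes had an unadjusted limma p below 0.05. With the floor set to 0 that comparison had 38 higher and 65 lower calls. That setting moved the median of all genes from -0.16 to -0.40 in interneuron-like minus progenitor-like cells and from -0.07 to -0.21 in interneuron-like minus excitatory neuron-like cells. The cause of these changes was not tested.

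Nxph1 exceeded excitatory neuron-like cells by 3.83 on the log2 scale with a pseudocount of 10, and Nrxn3 by 2.62. With the floor set to 0 Nrxn3 exceeded them by 5.54. Nlgn1 in interneuron-like minus excitatory neuron-like cells ranged from -0.44 (pseudocount 10) to -1.70 (log2 of the mean). In excitatory neuron-like minus progenitor-like cells Nlgn1 was 0.02 by the gate, against 0.46. The gate's excitatory class also took in 42 cells that had stayed unnamed, and the part of this in the Nlgn1 value was not tested. Of the pathway calls, Igsf21 and Lphn2 lost the call under 7 of 13 alternatives each, Grip1 under 5, Nxph2 and Clstn3 under 3 each, and Cadm1 and Flrt3 under 2 each. The share with Nrxn2 fell to 8.74% of excitatory neuron-like, 11.1% of interneuron-like and 2.44% of progenitor-like cells when detection meant at least 10 TPM. With the pool block 6 further pathway calls were made (Dlgap4, Shank1, Clstn2, Khdrbs3, Lphn2 and Nxph2), and the 7 others were kept. Depth per cell is unknown, so absence of a gene at the floor was not shown in any class.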
